A study of Homo sapiens with 4 samples.

Results

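Classical cadherins are the calcium-dependent adhesion receptors of adherens junctions, and catenins are the proteins that link their cytoplasmic tails to actin. The set comprised 10 genes, the cadherins CDH1, CDH2, CDH3, CDH4, CDH6, CDH11 and CDH13 and the catenins CTNNA1, CTNNB1 and CTNND1. Every probe set annotated to exactly 1 of these genes was taken, which gave 23 probe sets for 7 of the 10 genes, out of 19741 genes measured. Of these, 15 probe sets belonged to 5 cadherins and 8 to 2 catenins. No single-gene probe set carried the name CDH4 or CDH13, and the 4 probe sets of CTNND1 carried the name of a read-through transcript, TMX2-CTNND1, as well. These 3 genes were not analysed here.

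RNA came from established human lung adenocarcinoma lines, the invasive subline CL1-5 and its less invasive parent CL1-0, with 1 Affymetrix array for each of 4 groups. By the labels the study changed the level of G9a in each line. The groups were CL1-5 with an shRNA against the histone methyltransferase G9a (1 hairpin), CL1-5 with a control shRNA, CL1-0 expressing HA-tagged G9a, and CL1-0 with the control vector. All were stable transductants obtained by puromycin selection. With 1 array a group there is no replicate within a line, so differences there carry no p-value and no error between replicates.

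Cadherins of the same type bind each other across the gap between neighbouring cells. Beta-catenin and p120-catenin bind the cadherin tail, and alpha-catenin joins the complex to actin filaments. E-cadherin, the product of CDH1, is typical of epithelia, and N-cadherin, the product of CDH2, of nerve, muscle and mesenchyme. A switch from the first to the second is a known mark of epithelial-mesenchymal transition in carcinoma cells, and the Snail and ZEB families are known repressors of CDH1. In breast cancer cells, G9a has been reported to act together with Snail at the CDH1 promoter.

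Signals are linear intensities as deposited. Before log2 ratios were taken, anything under 3.35 (the 25th percentile over the whole table) was set to that floor. A gene or probe set is called counted if at least 1 array of the comparison reached 12.5, the median over the whole table. Each gene was represented by its brightest probe set. The median counted gene had a log2 ratio of 0.42 in the knockdown comparison and of -0.08 in the HA-G9a comparison, and ratios called relative have this subtracted. Where a gene had several counted probe sets, their log2 ratios scattered with a pooled SD of 0.54 for the knockdown and 0.51 for HA-G9a, which measures disagreement between probe sets and not between cultures. EHMT2, which encodes G9a, had signals of 28.1 with the G9a shRNA and 376 with the control shRNA, and of 862 with HA-G9a and 420 with the vector, in the direction each label gives. Its other counted probe set read 9.98 with the G9a shRNA and 34.2 with the control shRNA. In CL1-0 that probe set was within 2-fold, at 44.2 with HA-G9a and 38.0 with the vector. A dim probe set, not counted, was higher with the G9a shRNA (5.32, control 2.10) and with HA-G9a (7.89, vector 3.58). The labels name a type II alveolar origin. Of 7 measured markers of that cell type none exceeded a signal of 60.2 on any array, the surfactant gene SFTPC reading 29.8 with the G9a shRNA and 33.5 with the control shRNA, and 6.72 with HA-G9a and 21.3 with the vector. Of 10 epithelial markers 5 were counted in each line, among them the keratin gene KRT18 at 2533 with the G9a shRNA and 2945 with the control shRNA, and at 2113 with HA-G9a and 545 with the vector, while KRT19 was under the floor on every array. With the G9a shRNA 2 of the counted ones were past 2-fold higher, CLDN3 and EPCAM, and 1 lower, KRT8. Over all counted genes the shares were 8.13% higher and 7.76% lower. CLDN3 and EPCAM were counted only through the G9a shRNA array, and the CLDN3 control was under the floor. With HA-G9a 3 were higher, KRT8, KRT18 and CLDN4, against 5.46% of all counted genes. CLDN4 was counted only through the HA-G9a array, with the vector under the floor. The median over the 5 counted was 1.55 on the relative log2 scale. Whether these markers bear on the member differences was not tested. Of 4 measured leukocyte markers PTPRC ran between 2.59 and 4.17 and CD14 was under the floor on every array, whereas ITGAM reached 19.7 and CD3E 15.2, both with the G9a shRNA.

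Between the arrays of CL1-5, the brightest probe sets of CDH1 and CDH2 differed in opposite directions. Those of the measured catenin genes kept close to the median gene. The other CDH1 probe set, dim and not counted, was lower with the G9a shRNA, at 1.14, than with the control shRNA, at 5.59. Of the 7 members with a probe set, 4 were counted: CDH1 was past 2-fold higher with the G9a shRNA, CDH2 was past 2-fold lower, and CTNNA1 and CTNNB1 were within 2-fold. Over all 13045 counted genes, 8.13% were past 2-fold higher and 7.76% past 2-fold lower, so 1 member in each direction describes these 4 genes and is no result about the set. In CL1-0, 1 of 4 counted members, CDH2, was past 2-fold higher with HA-G9a and none lower, against 5.46% of 12791 counted genes higher and 3.74% lower. CDH1 in CL1-5 and CDH2 in CL1-0 were counted only through the array on which they were higher, so their difference is partly set by the filter. By probe set, 1 of 11 counted was higher and 2 lower with the G9a shRNA, against 8.13% and 8.20% of all counted probe sets. With HA-G9a 2 of 12 were higher and 0 lower, against 5.86% and 3.78%. Most of these probe sets were also counted only through the array on which they were higher. In CL1-5 these were 201131_s_at of CDH1 and 203441_s_at of CDH2, and in CL1-0 203440_at of CDH2 and 210601_at of CDH6. Taken in either direction, 15.9% of genes were past 2-fold after the knockdown and 9.21% with HA-G9a. The cadherins were dim throughout: of their 15 probe sets, 4 reached 12.5 on any array and 0 reached 84.2, the 75th percentile of all values. At that stricter filter only CTNNA1 and CTNNB1 remained, and 0 of these 2 were past 2-fold in either line. The shares over all genes at that filter were 4.82% higher and 5.21% lower after the knockdown. With HA-G9a they were 1.56% higher, 0.827% lower and 2.39% in either direction. In these RNA pools, fewer cells that express a gene and less RNA per cell cannot be told apart.

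**Figure D1:**
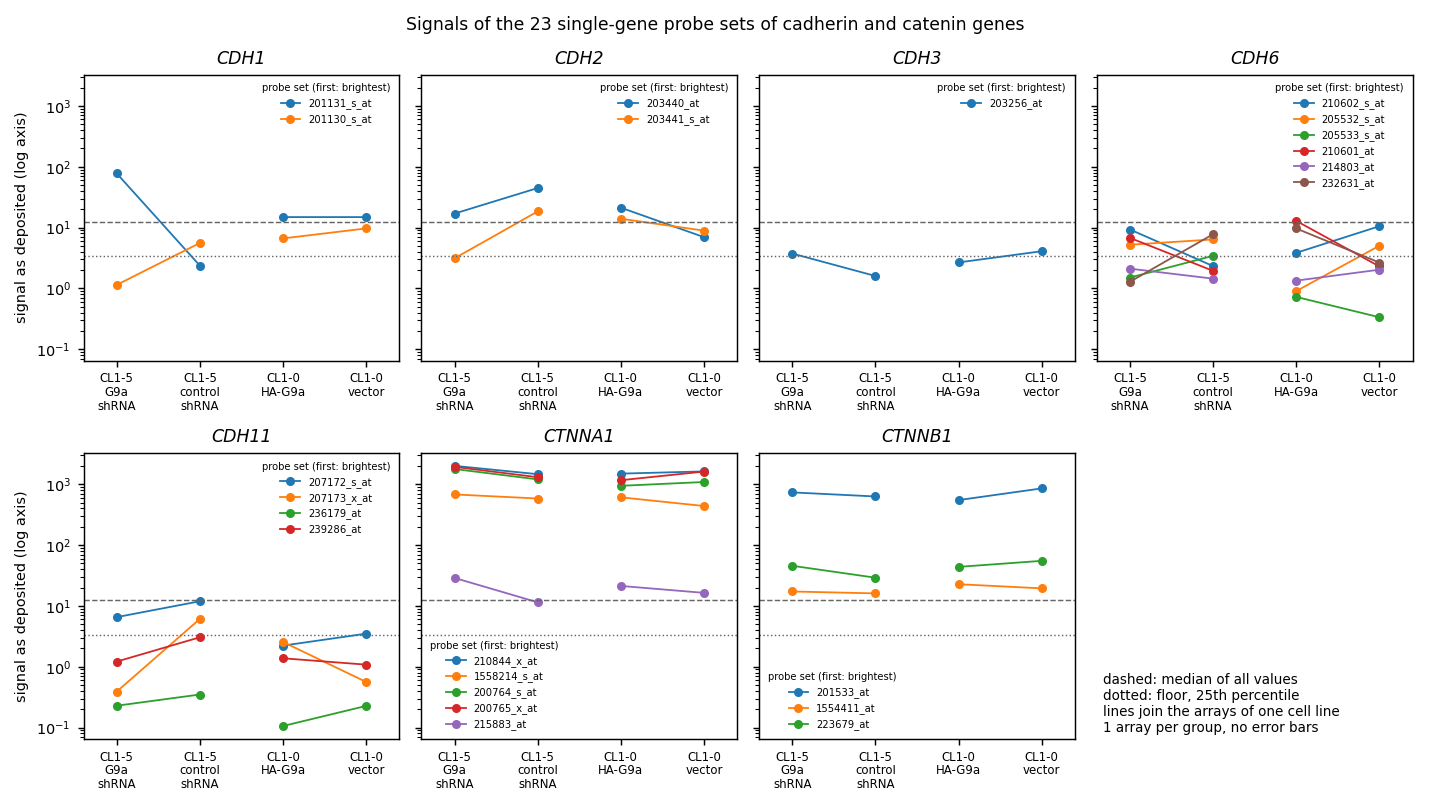
Signal as deposited (log axis) of each single-gene probe set on the 4 arrays, 1 panel per gene, with the array of the altered G9a level left of its control in each line. The brightest CDH1 probe set stands at 77.6 with the G9a shRNA and at 2.36 with the control shRNA, both CDH2 probe sets are lower with the G9a shRNA and higher with HA-G9a, and the brightest probe sets of CTNNA1 and CTNNB1 stay between 549 and 2009.

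CDH1 lies on chromosome 16, from 68737292 to 68835537 (GRCh38.p14, RefSeq). Its brighter probe set, 201131_s_at, read 77.6 with the G9a shRNA and 2.36 with the control shRNA in CL1-5, and 14.9 on both the HA-G9a and the vector array of CL1-0. The knockdown array was thus the highest, the CL1-5 control the lowest and below the floor, and the CL1-0 arrays lay between them and nearly equal. With the control set to the floor, the knockdown signal was 23.1-fold higher as deposited, and the relative log2 ratio was 4.11. That value depends on the floor: it was 2.27 with the floor at the median of all values and 4.62 with a floor of 1. For HA-G9a the relative log2 ratio was 0.08. The other probe set, 201130_s_at, read 1.14 with the G9a shRNA and 5.59 with the control shRNA, and 6.64 with HA-G9a and 9.68 with the vector. It stayed under 12.5 on all arrays and was lower, not higher, with the G9a shRNA. Averaged over both CDH1 probe sets, the relative log2 ratio after the knockdown was 1.49, so the size depends on which probe set is taken.

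CDH3, which encodes P-cadherin of basal epithelial layers, lies 3.5 kb before CDH1 on the same chromosome. Its only probe set read 3.75 with the G9a shRNA and 1.60 with the control shRNA, and 2.67 with HA-G9a and 4.09 with the vector. All values were near or under the floor, so no ratio is given. The genes around CDH1, a set chosen after the value of CDH1 was known, stayed mostly near the median gene. Of 16 protein-coding genes within 500 kb, 14 were measured and 13 counted in the knockdown comparison. Their relative log2 ratios ran between -0.63 and 1.04, with a median of 0.14. The amino acid transporter gene SLC7A6 was the 1 gene past 2-fold relative to the median gene, at 201 with the G9a shRNA and 73.0 with the control shRNA, and its other 2 counted probe sets had relative log2 ratios of 0.30 and 0.42. As deposited, without centring, PLA2G15, SMPD3 and COG8 were past 2-fold as well, which makes 4 of 13. SMPD3 was counted only through the G9a shRNA array. Over all counted genes, 8.13% were past 2-fold higher after centring, and 21.6% were past it in either direction as deposited. TANGO6, 8.0 kb beyond CDH1, read 180 with the G9a shRNA and 104 with the control shRNA, a relative log2 ratio of 0.37. In CL1-0, 1 of 12 counted neighbours was past 2-fold higher, against 5.46% of all counted genes. This was the hyaluronan synthase gene HAS3, which read 124 with HA-G9a and 32.8 with the vector.

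**Figure D2:**
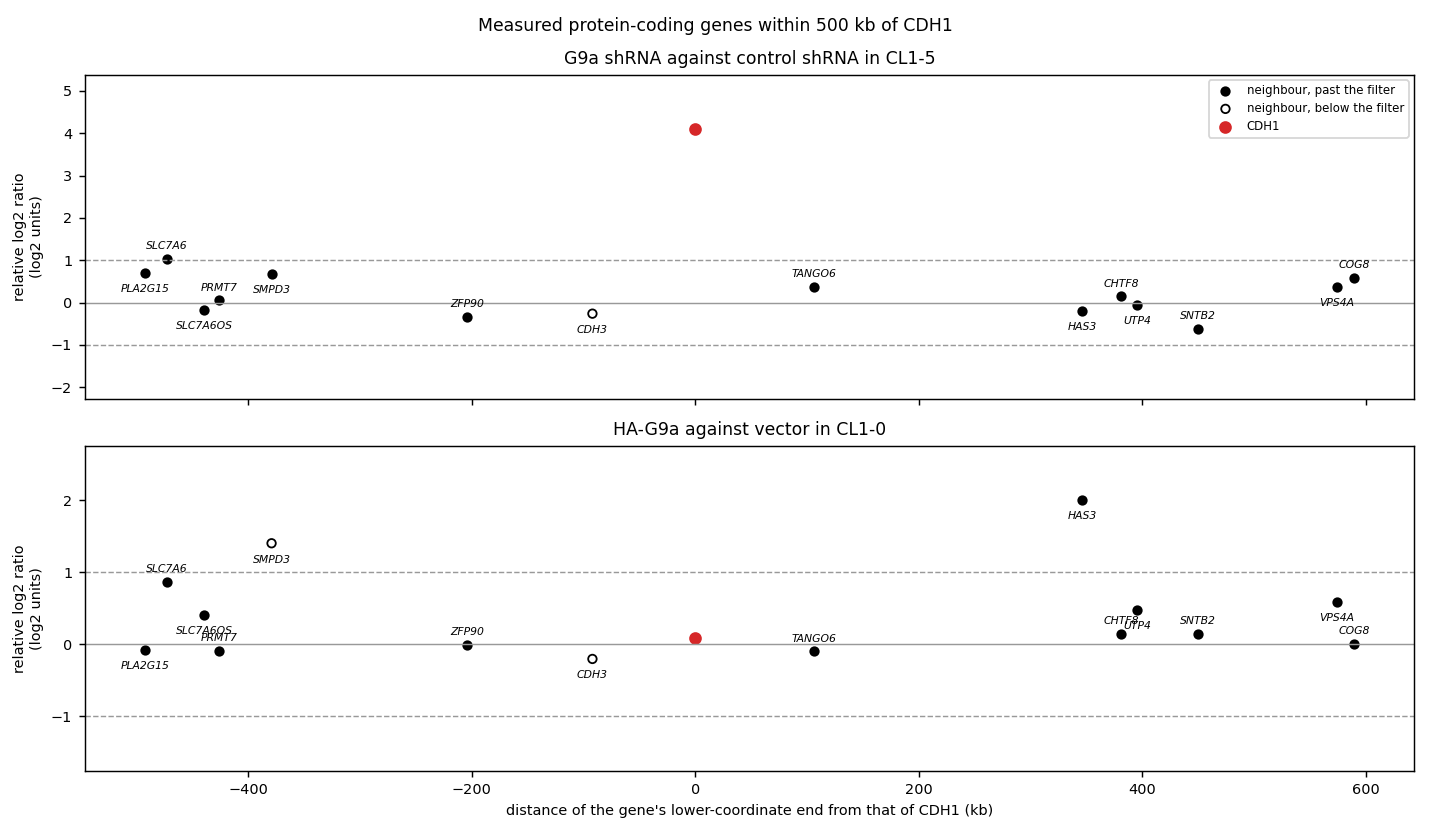
Relative log2 ratio (vertical axis, log2 units) of CDH1 and of the measured protein-coding genes within 500 kb against distance from CDH1 in kb, with the knockdown comparison above and the HA-G9a comparison below. Each point is 1 gene. CDH1 stands at 4.11 after the knockdown, set against the floor, and its counted neighbours lie between -0.63 and 1.04.

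CDH2 was the 1 member past 2-fold in both comparisons, and its signal ran in the direction of EHMT2 in each line. It lies on chromosome 18, from 27932879 to 28177130, with no other protein-coding gene within 500 kb. RefSeq gives 2 promoter windows for it, and these, from 250 bases before to 50 bases after a start, are shown because CDH2 is the cadherin that differed in both lines. They are 5′ to 3′ on the minus strand of GRCh38.p14, at chr18:28177081-28177380 for the outer start and chr18:28036592-28036891 for the inner one. Capitals mark motif matches, and both strands were searched.
CDH2 outer start: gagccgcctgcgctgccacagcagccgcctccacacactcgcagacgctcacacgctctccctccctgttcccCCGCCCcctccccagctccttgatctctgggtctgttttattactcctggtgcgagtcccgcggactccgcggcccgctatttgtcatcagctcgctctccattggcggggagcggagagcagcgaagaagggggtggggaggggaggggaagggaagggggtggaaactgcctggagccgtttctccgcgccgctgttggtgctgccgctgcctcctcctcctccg
CDH2 inner start: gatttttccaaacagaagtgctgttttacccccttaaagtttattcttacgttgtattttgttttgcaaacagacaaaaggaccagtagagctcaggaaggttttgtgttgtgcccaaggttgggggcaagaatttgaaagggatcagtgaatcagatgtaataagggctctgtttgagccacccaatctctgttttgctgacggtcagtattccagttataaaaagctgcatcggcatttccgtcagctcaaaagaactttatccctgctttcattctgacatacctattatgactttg
The motifs were the E-box of Snail and ZEB factors, CAGGTG, then the TCF/LEF core with the letters CTTTGAT, and the GC box with the letters GGGCGG. Matches may share bases, as neighbouring GC boxes of CTNNA1 shown further on do. Among all 35116 RefSeq promoter windows of this length, 20.6% held that E-box, 2.62% the TCF/LEF core and 45.0% the GC box. The outer window held 1 GC box, and the inner window no motif. The outer window had 23 CpG dinucleotides, more than 64.2% of all windows, and the inner one had 4. Which start the probe sets report on was not tested. No window was listed for CDH1, CDH3, CDH6, CDH11, CDH13 or CTNND1.

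The brighter CDH2 probe set, 203440_at, read 17.0 with the G9a shRNA and 44.7 with the control shRNA in CL1-5, and 21.3 with HA-G9a and 6.98 with the vector in CL1-0. The second, 203441_s_at, read 3.12 with the G9a shRNA and 18.4 with the control shRNA, and 14.0 with HA-G9a and 8.92 with the vector. Both probe sets were highest in the CL1-5 control. Both were lower with the G9a shRNA and higher with HA-G9a than in the matching control. For the brighter one the relative log2 ratio was -1.81 after the knockdown, rank 434 from the bottom of 13045 genes, and 1.69 with HA-G9a, rank 302 from the top of 12791. For the second they were -2.88, with the knockdown signal under the floor, and 0.73, which is within 2-fold. With the floor set at the median of all values, the HA-G9a ratio of the brighter probe set was 0.85 and no longer past 2-fold.

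Markers of another cell type that can express N-cadherin were lower too with the G9a shRNA. The 5 counted endothelial markers, of 7 measured, were past 2-fold lower with the G9a shRNA, against 7.76% of all counted genes. CDH5, KDR and CLDN5 were counted only through the control array, so their difference is partly set by the filter. The KDR signal with the G9a shRNA was under the floor. Signals of the 7 measured markers summed to 116 with the G9a shRNA and 518 with the control shRNA, and to 51.1 with HA-G9a and 64.6 with the vector. PECAM1 read 81.5 with the G9a shRNA and 318 with the control shRNA, and CLDN5 read 7.87 with the G9a shRNA and 81.8 with the control shRNA. VWF and TEK were under the floor on both CL1-5 arrays. In CL1-0 3 endothelial markers were counted, where 5.46% of all counted genes were higher and 3.74% lower. TEK was past 2-fold higher, at 15.8 with HA-G9a and 6.64 with the vector. PECAM1 was lower, at 1.61 with HA-G9a, under the floor, and 13.3 with the vector. The 1 other counted PECAM1 probe set had the other sign, at 0.76. TEK and the brightest PECAM1 probe set were counted only through the brighter array. Fibroblast markers summed over 7 genes to 79.0 with the G9a shRNA and 40.3 with the control shRNA, and to 173 with HA-G9a and 451 with the vector. A single collagen gene carried each difference, as sums chosen after the data were seen show: without COL1A1 the sums were 37.0 with the G9a shRNA and 31.3 with the control shRNA, and without COL3A1 they were 113 with HA-G9a and 121 with the vector. The part of either in the CDH2 difference was not tested.

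CDH6 and CDH11 encode type II classical cadherins, known from kidney and from bone and mesenchyme. CDH6 had 6 probe sets, and all read between 0.336 and 12.9. Only 210601_at was counted, at 12.9 with HA-G9a and 2.30 with the vector in CL1-0, a relative log2 ratio of 2.03 set against the floor. Its other probe sets disagreed: 210602_s_at read 3.85 with HA-G9a and 10.5 with the vector, the opposite order, while 232631_at read 9.67 with HA-G9a and 2.66 with the vector. CDH11 had 4 probe sets, all under 12.5, and the brightest, 207172_s_at, read 6.54 with the G9a shRNA and 11.9 with the control shRNA, and 2.22 with HA-G9a and 3.49 with the vector. Its remaining probe sets did not exceed 6.11. On 2 of the 4, every value was under the floor and has no order. Scaling the arrays to a common median or by quantiles lifted CDH11 over the filter and gave log2 ratios of -1.27 and -1.24 for the knockdown, past 2-fold.

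**Figure D3:**
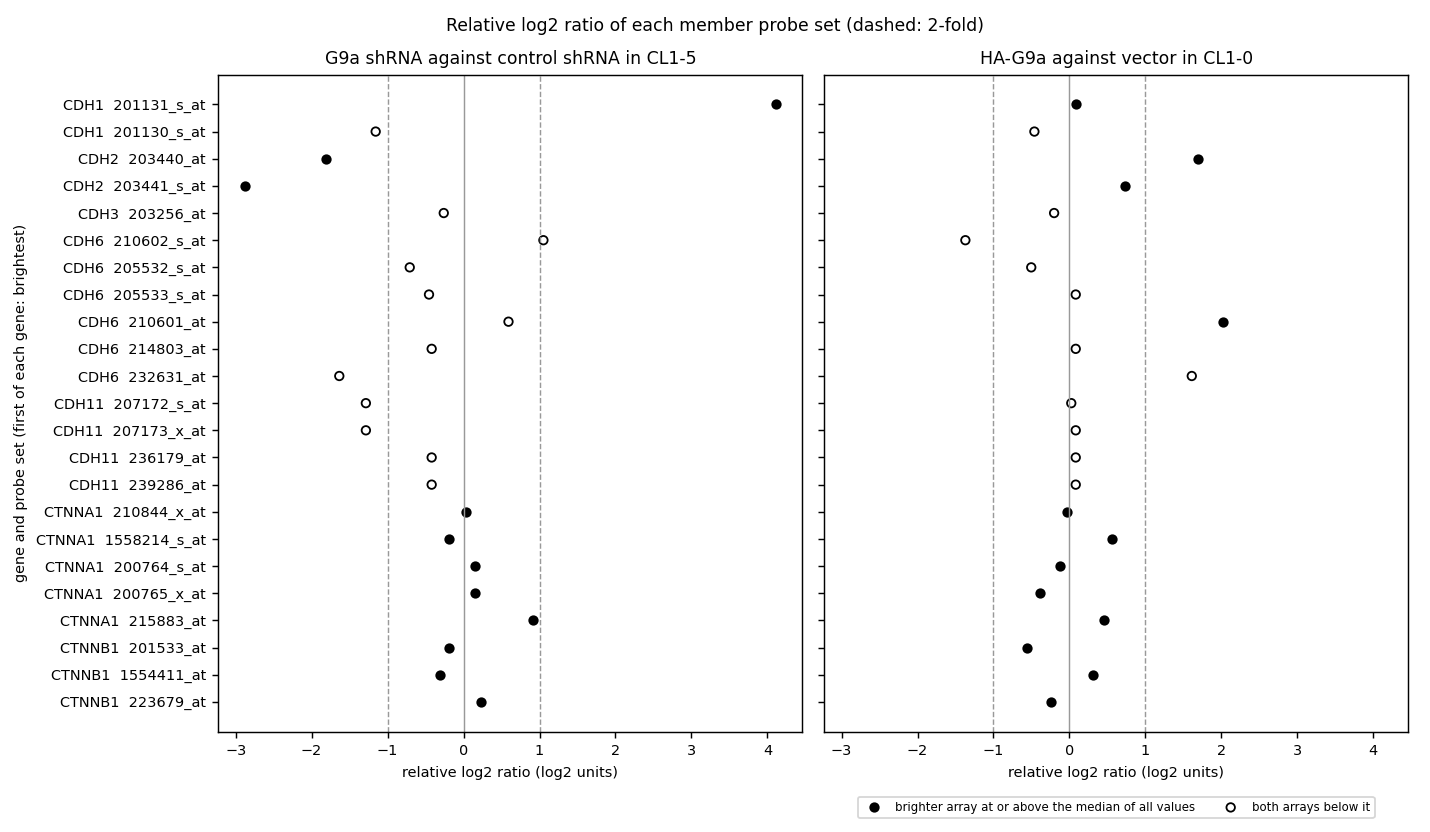
Relative log2 ratio (horizontal axis, log2 units) of the 23 member probe sets with the G9a shRNA against the control shRNA (left) and with HA-G9a against the vector (right). Filled points had a signal of at least 12.5 on the brighter array, open points did not, and dashed lines mark 2-fold. The 8 catenin points lie within 2-fold in both panels.

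The catenins that could be measured were bright and differed little. CTNNA1, the alpha-catenin gene, lies on chromosome 5 from 138753425 to 138935034, and CTNNB1, the beta-catenin gene and a nuclear effector of Wnt signalling, on chromosome 3 from 41199505 to 41240443. Their outermost promoter windows in RefSeq are shown for contrast with CDH2, on the plus strand, at chr5:138753175-138753474 and chr3:41199255-41199554.
CTNNA1: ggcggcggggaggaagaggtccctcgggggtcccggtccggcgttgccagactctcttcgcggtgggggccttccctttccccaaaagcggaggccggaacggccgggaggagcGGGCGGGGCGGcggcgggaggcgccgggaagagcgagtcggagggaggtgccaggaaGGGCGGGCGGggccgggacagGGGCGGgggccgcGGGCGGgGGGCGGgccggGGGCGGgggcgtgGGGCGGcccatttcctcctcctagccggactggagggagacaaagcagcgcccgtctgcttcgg
CTNNB1: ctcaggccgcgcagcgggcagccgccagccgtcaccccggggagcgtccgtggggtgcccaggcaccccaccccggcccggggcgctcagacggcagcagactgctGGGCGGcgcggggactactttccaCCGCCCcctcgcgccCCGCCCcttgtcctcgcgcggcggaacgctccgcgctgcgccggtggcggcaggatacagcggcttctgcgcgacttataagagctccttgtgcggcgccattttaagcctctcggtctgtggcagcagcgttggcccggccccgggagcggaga
The CTNNA1 window held 9 GC boxes, some overlapping, and 37 CpG dinucleotides, more than 88.7% of all windows. The CTNNB1 window held 3 GC boxes and 39 CpG dinucleotides, more than 91.3%. Neither held the E-box or the TCF/LEF core. A pair of overlapping inner windows of CTNNA1, not shown, held the same 1 TCF/LEF core.

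The brightest CTNNA1 probe set, 210844_x_at, read 2009 with the G9a shRNA and 1466 with the control shRNA, and 1496 with HA-G9a and 1628 with the vector. The relative log2 ratios were 0.04 and -0.04, the nearest to the median gene of any counted member. Over its 5 probe sets they ran between -0.20 and 0.91 after the knockdown and between -0.39 and 0.56 with HA-G9a. The highest, 0.91, came from the dim 215883_at, which read 28.8 with the G9a shRNA and 11.5 with the control shRNA. CTNNB1 on 201533_at read 735 with the G9a shRNA and 630 with the control shRNA, and 549 with HA-G9a and 855 with the vector. Its relative log2 ratios were -0.20 and -0.56. The dimmer CTNNB1 probe sets gave -0.32 and 0.23 after the knockdown and 0.31 and -0.25 with HA-G9a, so the lower value with HA-G9a was not seen on every probe set. Each relative catenin ratio in either line was within 2-fold, whereas the deposited log2 ratio of 215883_at was 1.33 after the knockdown.

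**Figure D4:**
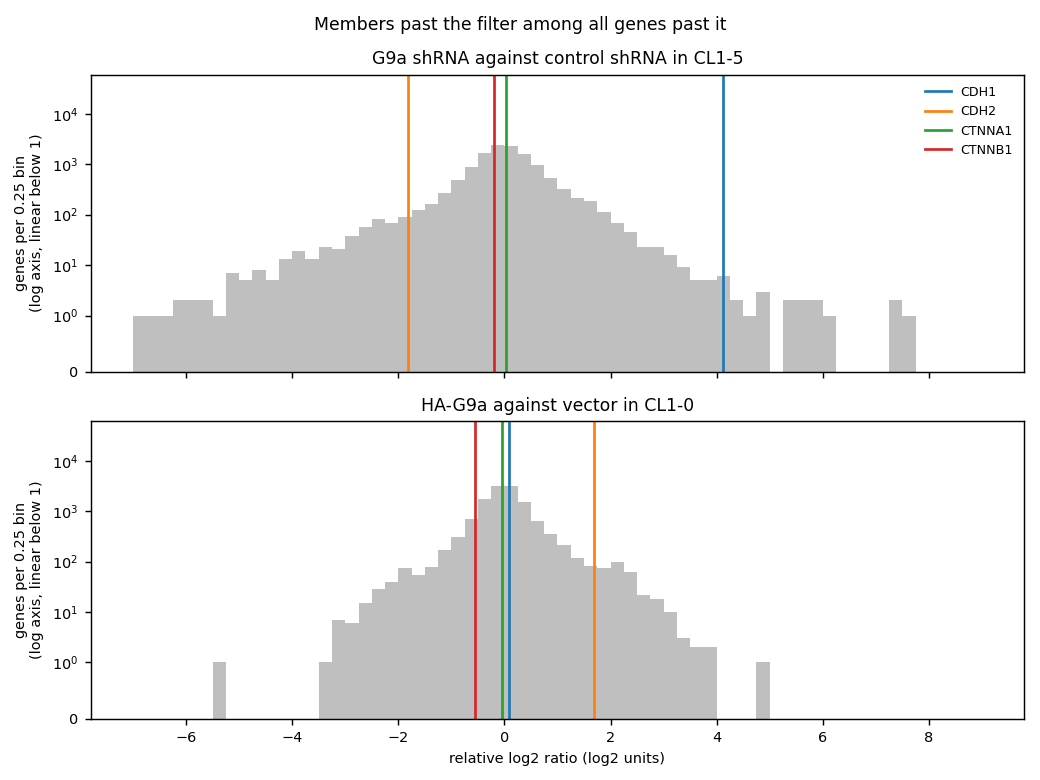
Number of counted genes per bin of relative log2 ratio (vertical axis logarithmic above 1) with the G9a shRNA against the control shRNA (above) and with HA-G9a against the vector (below). Coloured lines mark the brightest probe set of the 4 counted members. CDH1 at 4.11 stands in the sparse upper tail of the knockdown comparison, CDH2 at -1.81 and 1.69 in the lower and upper shoulders, and both catenins in the bulk.

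Between the lines, no member probe set differed beyond the spread of the arrays. Both CL1-5 arrays were set against both CL1-0 arrays with limma over 27159 probe sets. The spread within a line there includes the change of G9a, and p-values measure only the spread between these 4 populations. Of 12 member probe sets fitted, 0 had an adjusted p under 0.05 and 0 an unadjusted p under 0.05, against 2.14% and 20.1% of all probe sets fitted. CDH2 on 203440_at had the largest difference of these 12, 1.18 on the log2 scale higher in CL1-5 (SE 0.73, limma adjusted p = 0.426), and its second probe set gave -0.51 (SE 0.85, limma adjusted p = 0.778). With no filter, CDH11 on 207172_s_at differed more, by 1.37 (SE 0.38, limma adjusted p = 0.291). CDH1 on 201131_s_at differed by 0.12 (SE 1.44, limma adjusted p = 0.973). In the control arrays alone, CDH1 read 2.36 in CL1-5 and 14.9 in CL1-0, and CDH2 on 203440_at 44.7 in CL1-5 and 6.98 in CL1-0. With the floor, these are log2 differences of -2.15 and 2.68, and they have no replicate. On simulated data for the same probe sets, the fit recovered 0 of 50 differences of 2 on the log2 scale and 30 of 50 differences of 4. Neither sizes between these nor one as small as the 1.18 of CDH2 was simulated. At 50 probe sets a size, the simulation changed fewer probe sets than the 581 called in the data, which makes the adjustment stricter. It therefore does not show what size of difference was detectable here.

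Genes that act with cadherins at the junction were mostly close to the median gene. The counts of the following lists stand against the shares over all genes given above, where the median relative log2 ratio is 0. Without centring, the knockdown counts became 5 higher and 0 lower for the junction genes and 6 higher and 1 lower for the other cadherins. For the CDH1 regulators they became 4 higher and 4 lower. These uncentred counts stand against another share: as deposited, 21.6% of all counted genes were past 2-fold in either direction, and 15.9% after centring. Of 30 measured other adherens junction genes, 25 were counted after the knockdown, 3 past 2-fold higher and 0 lower, with a median relative log2 ratio of -0.09. Higher were LMO7, an afadin-binding scaffold gene, at 121 with the G9a shRNA and 16.4 with the control shRNA, and PTPRK, a receptor tyrosine phosphatase gene, at 275 with the G9a shRNA and 38.8 with the control shRNA. ARVCF, a relative of p120-catenin, read 20.9 with the G9a shRNA and 6.47 with the control shRNA. It was counted only through the G9a shRNA array. With HA-G9a 2 of 24 counted were higher and 1 lower (median 0.19). LIMA1, an actin-bundling linker to alpha-catenin, read 513 with HA-G9a and 198 with the vector, and PTPRK 116 with HA-G9a and 55.7 with the vector. NECTIN3, an adhesion receptor gene, read 8.80 with HA-G9a and 21.2 with the vector, and was counted only through the vector array. JUP, which encodes gamma-catenin, read 29.3 with the G9a shRNA and 19.4 with the control shRNA, and 130 with HA-G9a and 184 with the vector, within 2-fold in both lines.

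Among 27 other cadherin genes, 13 were counted after the knockdown, 4 higher and 1 lower (median 0.51). CDH5, the endothelial cadherin gene, which is also among the endothelial markers above, was the lower one, at 5.24 with the G9a shRNA and 62.3 with the control shRNA. FAT2 read 20.5 with the G9a shRNA and 3.14 with the control shRNA, CDH26 17.3 with the G9a shRNA and 3.32 with the control shRNA, and FAT1, a giant atypical cadherin gene, 743 with the G9a shRNA and 196 with the control shRNA. CELSR2 completes the higher genes, at 28.4 with the G9a shRNA and 9.01 with the control shRNA. FAT2, CDH26 and CELSR2 were counted only through the G9a shRNA array and CDH5 only through the control array. Their differences are thus partly set by the filter. The control signals of FAT2 and CDH26 were at or under the floor. None of 9 counted was past 2-fold with HA-G9a (median 0.04). Of 18 counted genes of cadherin processing and turnover, 0 were higher and 3 lower after the knockdown (median -0.11). FYN, a Src-family kinase gene, read 24.3 with the G9a shRNA and 57.1 with the control shRNA, SRC 85.6 with the G9a shRNA and 137 with the control shRNA, and AXIN1, a scaffold of beta-catenin breakdown, 42.5 with the G9a shRNA and 63.9 with the control shRNA. The calls of SRC and AXIN1 rest on the centring: as deposited their log2 ratios were -0.68 and -0.59, and the list then had 1 gene higher and 1 lower. Of 3 other counted SRC probe sets, 1 had the other sign. AXIN1 was also the 1 of 18 past 2-fold with HA-G9a, at 17.1 with HA-G9a and 45.6 with the vector (0 higher, median -0.07).

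Known regulators of CDH1 transcription, a list of DNA-binding factors and of corepressors and chromatin enzymes such as HDAC1, CTBP1, EZH2 and DNMT1, differed in both directions. Of 24 measured, 20 were counted after the knockdown, 3 higher and 4 lower (median 0.07). Lower were the repressor genes ZEB2, at 0.209 with the G9a shRNA and 14.7 with the control shRNA, and TWIST2, at 56.0 with the G9a shRNA and 163 with the control shRNA. Also lower were SNAI2, which encodes Slug, at 274 with the G9a shRNA and 682 with the control shRNA, and SNAI1, which encodes Snail, at 18.3 with the G9a shRNA and 40.1 with the control shRNA. The ZEB2 signal with the G9a shRNA was under the floor. TCF4, an E-protein repressor gene, was higher, at 150 with the G9a shRNA and 12.0 with the control shRNA, and all 6 of its other counted probe sets had the same sign. TWIST1 read 14.0 with the G9a shRNA and 3.56 with the control shRNA. OVOL2, a gene of epithelial maintenance, read 14.8 with the G9a shRNA and 1.88 with the control shRNA, the control being under the floor. With HA-G9a, 2 of 20 were higher and 2 lower (median -0.01): SNAI2 read 35.7 with HA-G9a and 6.93 with the vector, KLF4 155 with HA-G9a and 47.2 with the vector, OVOL2 3.36 with HA-G9a and 12.5 with the vector, and OVOL1 13.8 with HA-G9a and 33.6 with the vector. SNAI2, like CDH2, was lower with less G9a in CL1-5 and higher with more G9a in CL1-0, and OVOL2 ran the other way in both lines. TCF4, TWIST1 and ZEB2 in CL1-5, SNAI2 in CL1-0 and OVOL2 in both lines were counted only through the brighter array. Their differences are thus partly set by the filter. The brighter OVOL2 signals lay close to the filter. SNAI2 and OVOL2 were picked from the list by the size of their ratios. CELSR2, SNAI1 and TWIST1 are named because they complete the counts and were chosen after their values were seen.

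**Figure D5:**
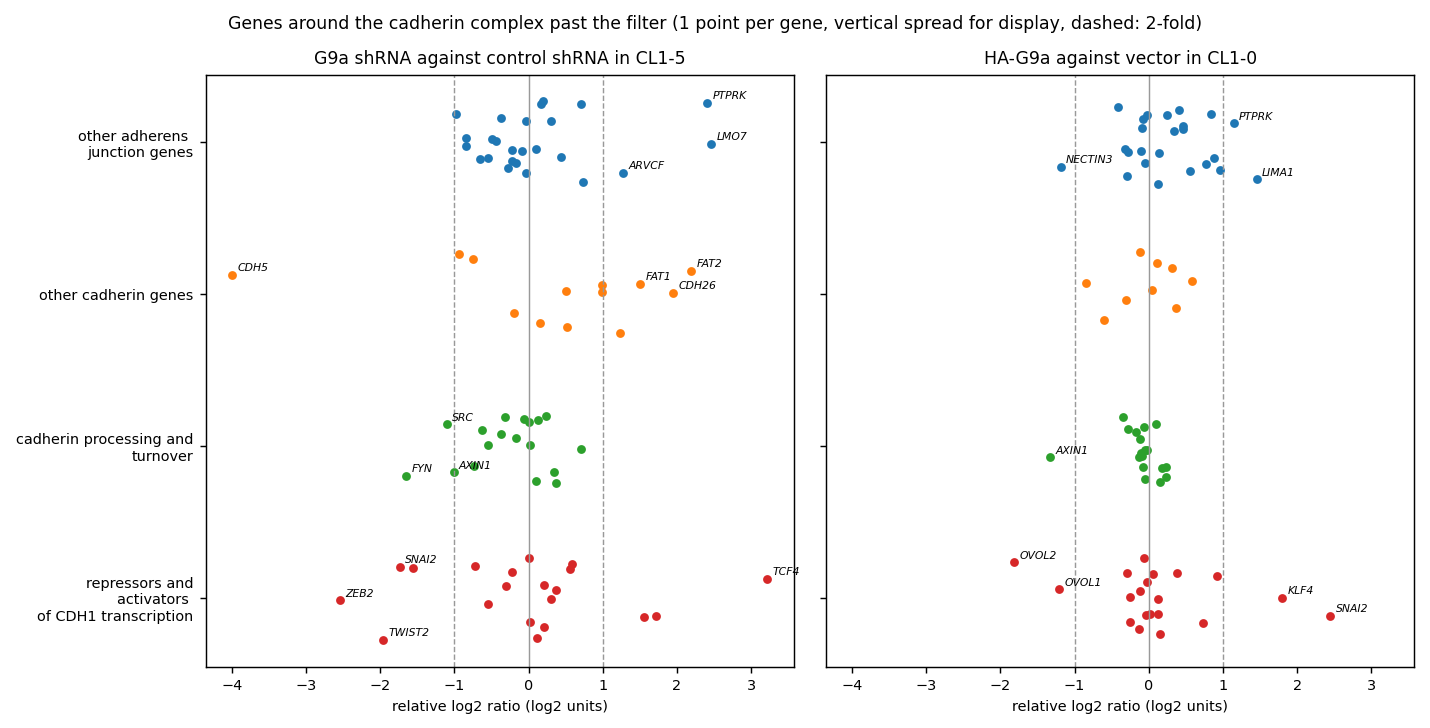
Relative log2 ratio (horizontal axis, log2 units) of the counted genes of 4 lists with the G9a shRNA against the control shRNA (left) and with HA-G9a against the vector (right), 1 point per gene. Dashed lines mark 2-fold, and up to 4 genes past it are named in each list. CDH5 at -3.99 and TCF4 at 3.22 are the farthest points of the knockdown panel.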

How the data were processed

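The deposited table holds linear intensities for 54675 probe sets on 4 arrays, made by the authors with MAS5 per the submitters' processing notes. Its settings and target level were not given in these sources. Array medians ran from 11.3 to 14.9. Of the probe sets, 41097 named 1 gene, 1801 several and 11777 were not listed in the annotation table. Symbols were updated by Entrez identifier to RefSeq (GRCh38.p14) for 41043, and 58 for XIST or chromosome Y genes were left out. Probe sets of types _s_at and _x_at can share signal between related transcripts. The members and gene lists were chosen with earlier results of these data known. All 10 members, EHMT2, up to 4 genes per list with the largest absolute relative ratio, and the 3 genes nearest to CDH1 and CDH2 were named.

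Within a line, counts used 2-fold with no test, as each group had 1 array, and the number of arrays limits the precision. The lines were compared with limma 3.58.1 (R 4.3.3; lmFit, eBayes, 2 residual degrees of freedom, Benjamini-Hochberg at 0.05) on log2 values, and the step was tested on simulated data. Other steps used Python 3.11.15 and pandas 2.3.3. Alternatives were other scalings, floors, filters, fold thresholds and probe set choices, and leaving out each array.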

Additional observations from a re-analysis of the deposited data

How the results depend on the processing

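The difference of CDH1 and of CDH2 after the knockdown kept its direction and stayed past 2-fold in all 8 settings of scaling, floor and probe set. Relative log2 ratios ran between 1.49 and 4.62 for CDH1 and between -2.33 and -1.39 for CDH2. For both genes the setting with the brightest _at probe set used the main probe set again. No setting took the CDH1 probe set 201130_s_at alone, whose relative log2 ratio was -1.16, in the opposite direction. The direction of CDH1 thus holds for 201131_s_at and for the mean of both. CDH2 with HA-G9a was past 2-fold in 7 of 8. The count of members past 2-fold after the knockdown, 2, became 0 with the filter at the 75th percentile (which leaves 2 members, the catenins), 4 with no filter and 1 at 4-fold. With HA-G9a the count of 1 of 4 became 0 of 4 with the floor at the median. It was 0 of 2 with the filter at the 75th percentile and 0 of 4 at 4-fold. With no filter it was 2 of 7, and with the brightest _at probe set, which brings in CDH6, 2 of 5. In the same order, the shares of all genes were 9.21%, 4.19%, 2.42%, 2.45%, 11.8% and 9.76%. In the line comparison 0 member probe sets were called in any setting, with a lowest limma adjusted p of 0.138, and the number at an unadjusted p under 0.05 was 0 to 2. Leaving out each array in turn, the CL1-5 minus CL1-0 difference lay between -2.15 and 2.38 for CDH1, 0.37 and 1.98 for CDH2, -0.091 and 0.36 for CTNNA1, and -0.33 and 0.31 for CTNNB1. The sign of CDH1 turned without the CL1-5 G9a shRNA array (-2.15), in the controls alone (-2.15), with quantile normalization (-0.12), median scaling (-0.067) and a floor of 1 (-0.14). That of CTNNA1 turned without the same array (-0.091), in the controls alone (-0.15) and with quantile normalization (-0.081), and that of CTNNB1 without the CL1-5 control array (0.10) and without the vector array (0.31). None of these differences was called, and the cause was not tested. Over all probe sets limma called 581, against 341 with a floor of 1, 386 with the floor at the median, 1000 with the filter at the 75th percentile, 22 with no filter, 1918 with a trend, and 0 without any single array (2433 to 7668 at an unadjusted p under 0.05). No paired analysis was possible because each group had 1 array.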

Other observations

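Some genes past the 75th percentile filter had a profile over the 4 arrays close to that of the E-cadherin or N-cadherin gene. Likeness was the Euclidean distance between log2 signals, each gene centred on its own mean, over 8884 genes and 4 arrays, and it carries no test. CDH1 and CDH2 themselves did not reach that filter, and each was represented by its brightest probe set. The CDH1 signal of the CL1-5 control was set to the floor. The nearest to CDH1 was TSPAN13, a tetraspanin gene, at a distance of 0.53, with signals of 1829 with the G9a shRNA and 120 with the control shRNA, and of 403 with HA-G9a and 332 with the vector. AHR, the aryl hydrocarbon receptor gene, followed at 0.64, reading 150 with the G9a shRNA and 11.6 with the control shRNA. NUAK1, a kinase gene, was at 0.67, reading 93.5 with the G9a shRNA and 7.78 with the control shRNA. In CL1-0, AHR read 31.7 with HA-G9a and 37.0 with the vector, and NUAK1 25.9 with HA-G9a and 26.0 with the vector. The nearest to CDH2 was MB21D2, at a distance of 0.36, with signals of 62.5 with the G9a shRNA and 187 with the control shRNA, and of 66.4 with HA-G9a and 29.9 with the vector. ECM1, an extracellular matrix gene, read 32.5 with the G9a shRNA and 107 with the control shRNA, and 44.2 with HA-G9a and 20.5 with the vector. SOCS3, a feedback inhibitor of cytokine signalling, read 101 with the G9a shRNA and 284 with the control shRNA, and 191 with HA-G9a and 54.3 with the vector, and 1 of its 3 other counted probe sets had the other sign in CL1-0. The distances of ECM1 and SOCS3 were both 0.47. AHR and NUAK1 reached the 75th percentile filter only on the G9a shRNA array, and MB21D2 and ECM1 only on the control shRNA array.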
